A study of Mus musculus with 36 samples.

Results

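The collagen and matrix genes are the protein-coding genes whose symbol in the GENCODE M21 annotation of mouse has the form of a collagen alpha chain, together with 6 other secreted matrix genes (Lum, Dcn, Postn, Timp1, Fn1 and Sparc), provided that their mean level reached 1 CPM (a count relative to the library total, with the total adjusted for library composition) in at least 1 of 8 groups of libraries. Of 55487 genes in the table, 50 carried such a symbol and 48 passed the floor, of which 42 were collagens. Col17a1 (highest group mean 0.282 CPM) and Col10a1 (0.694 CPM) were below it, and Col13a1 (1.21 CPM), Col9a1 (1.33 CPM) and Col4a6 (1.7 CPM) lay just inside. The RNA came from the dorsal root ganglion (DRG), which holds the cell bodies of sensory neurons and their glia in a collagen-rich capsule, and from the spinal cord (dorsal part, per the series' design), of female mice, either wild type or knockout for 1 gene. Mice were naive or had spared nerve injury (SNI), a model of neuropathic pain in which branches of the sciatic nerve are cut and a branch is left intact. Each tissue had 5 naive and 4 injured libraries of each genotype, 36 libraries in all. The labels did not give the strain, the age, the time after injury, how the knockout allele was made, or whether libraries came from different mice, so the p-values measure the spread between these libraries, which may in part be technical.

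Collagens are proteins of chains wound into a helix and secreted into the space between cells. Fibrillar collagens build the cables of connective tissue, network collagens (type IV) form the sheet of basement membranes around Schwann cells, satellite glia and vessels, and fibril-associated collagens decorate the cables. In peripheral nerve they form the layers that wrap the whole nerve, its bundles and its single fibres, whereas the spinal cord holds little fibrillar collagen outside its coverings and vessels. Dcn (decorin) and Lum (lumican) are small proteoglycans that bind collagen fibrils, Postn (periostin) and Sparc are matricellular proteins that regulate how matrix is assembled, Fn1 (fibronectin) is a cell-adhesive glycoprotein, and Timp1 inhibits the metalloproteinases that degrade matrix.

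The promoters of 4 genes are shown because these genes led the injury response in wild-type DRG. Col5a3, Timp1 and Col7a1 had the largest increases, and Col11a1 had the lowest adjusted p among the members that fell. Of the 48 members, 36 had an entry in a RefSeq promoter table for build GRCm38.p6. Col4a3, which had the largest fall (log2 -0.99), had no entry and could not be shown. Each line gives the 250 bases before the gene's start, 5′ to 3′ on the gene's strand, and capitals mark matches to 5 motifs searched on both strands, AP-1 (TGANTCA), the TATA box (TATAAA), the CCAAT box (CCAAT), the GC box (GGGCGG) and the E-box (CACGTG). The windows lie at chr9:20815068-20815317 on the minus strand (Col5a3), chr9:108953336-108953585 on the plus strand (Col7a1), chrX:20869916-20870165 on the plus strand (Timp1) and chr3:114030290-114030539 on the plus strand (Col11a1).
Col5a3: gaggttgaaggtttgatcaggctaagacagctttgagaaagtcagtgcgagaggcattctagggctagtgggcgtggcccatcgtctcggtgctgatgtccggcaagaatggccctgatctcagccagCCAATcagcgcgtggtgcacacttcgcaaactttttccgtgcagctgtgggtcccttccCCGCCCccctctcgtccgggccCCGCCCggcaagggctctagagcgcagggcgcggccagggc
Col7a1: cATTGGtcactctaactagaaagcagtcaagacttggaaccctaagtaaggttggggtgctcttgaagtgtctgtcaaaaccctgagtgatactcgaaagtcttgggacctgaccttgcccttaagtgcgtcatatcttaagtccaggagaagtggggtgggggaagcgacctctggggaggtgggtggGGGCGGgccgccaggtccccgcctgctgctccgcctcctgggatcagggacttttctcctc
Timp1: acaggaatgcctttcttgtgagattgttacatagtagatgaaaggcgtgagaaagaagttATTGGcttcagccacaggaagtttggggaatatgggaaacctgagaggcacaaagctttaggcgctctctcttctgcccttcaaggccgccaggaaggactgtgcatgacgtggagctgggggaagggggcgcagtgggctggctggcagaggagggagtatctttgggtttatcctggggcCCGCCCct
Col11a1: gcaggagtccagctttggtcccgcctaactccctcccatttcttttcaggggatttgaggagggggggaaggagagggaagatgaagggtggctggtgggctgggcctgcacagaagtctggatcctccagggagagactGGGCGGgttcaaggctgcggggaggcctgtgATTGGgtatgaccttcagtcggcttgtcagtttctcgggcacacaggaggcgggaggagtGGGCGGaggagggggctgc
All 4 windows held a CCAAT box, as did 33.8% of the 32817 windows of all genes in the table, and all 4 held a GC box, as did 32.7% of all windows. None of the 4 held the AP-1 letters (6.75% of all windows), the TATA letters (12.4%) or the E-box letters (6.02%). Over the 40 windows of the 36 members (some genes have more than 1 start), 57.5% held a GC box, 32.5% a CCAAT box, 10% the TATA letters, 2.5% the AP-1 letters (Col6a1) and 0% the E-box letters. These matches describe the letters in the windows and no binding was measured.

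Libraries held 21343031 to 27269039 estimated reads. For DRG libraries A2 and A4 the title gave the wild type, and the genotype entry and the deposited column names gave the knockout. Both were kept as knockout, and counts without them are given where they differ. The tissues showed their own markers. The sensory neuron gene Avil was at 385 to 755 CPM in DRG and at most 1.5 CPM in cord, and the myelin gene Mog was at 215 to 274 CPM in cord and at most 0.622 CPM in DRG. Libraries of naive wild-type DRG were not alike. Libraries A1, A3 and C1 had lower summed sensory neuron markers (3657, 3376 and 2938 CPM) than B1 and B3 (4393 and 4346 CPM), and higher blood markers (1554, 1575 and 3540 CPM against 737 and 906 CPM). Bulk RNA cannot tell fewer cells of a type from less RNA per cell.

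In naive wild type, most collagen and matrix genes were far more abundant in DRG than in cord. Sparc led in both tissues with 318 ± 34 CPM per kb of exon in DRG and 264 ± 23 in cord (mean ± SD, n = 5, as for all levels per kb). In DRG it was followed by Dcn (226 ± 58.3 CPM per kb), Lum (114 ± 32.1), Col3a1 (59.7 ± 15.9), Col1a1 (49.1 ± 12.7) and Col1a2 (46.9 ± 10.9). The ranges of Sparc and Dcn overlapped, as did those of Col3a1, Col1a1 and Col1a2, whereas the ranges of Dcn and Lum, Lum and Col3a1, and Col1a2 and Col5a3 (24.4 ± 3.26) did not. In cord Dcn (19 ± 7.63), Col3a1 (8.63 ± 6.57), Lum (8.59 ± 3.49), Col1a2 (7.55 ± 3.97) and Col11a2 (7.37 ± 0.355) followed, with overlapping ranges from each to the next. The lowest members were Col9a1 (0.0349 ± 0.0154 CPM per kb) in DRG and Col6a4 (0.0577 ± 0.0124) in cord.

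The joint fit of both tissues called 46 of 48 members different between naive wild-type DRG and cord (adjusted p under 0.05, the threshold for a call throughout), 38 higher in DRG and 8 lower. Of all 20626 genes tested, 76.7% were called, 40.1% higher and 36.6% lower in DRG. The members' median log2 difference was 1.62, against 0.06 over all genes. All 6 non-collagen genes, all 6 beaded-filament collagens (type VI chains) and 10 of 11 fibrillar collagens were called higher in DRG. The differences were largest for Col28a1, a minor collagen of peripheral glia (40.7-fold, log2 5.35 ± 0.14 SE), Postn (24.1-fold) and Col5a3, a chain of fibrillar type V collagen (19.9-fold). Col28a1 measured 71.9, 60.6, 74.9, 66 and 59.3 CPM in the 5 DRG libraries and 1.82, 1.2, 1.91, 1.54 and 1.22 CPM in the 5 cord libraries. The 8 genes lower in DRG were the type IX chains Col9a3 (7.17-fold lower) and Col9a1 (5.31-fold), the neuronal transmembrane collagen Col25a1 (4.8-fold), Col4a6 (4.49-fold), the fibrillar Col11a2 (3.67-fold), Col22a1 (1.98-fold), Col19a1 (1.56-fold) and Col4a5 (1.22-fold). Col9a2 (1.05-fold, adjusted p = 0.609) and Col13a1 (1.19-fold, adjusted p = 0.286) were not called. Scaling by plain library sizes moved the median of all genes in this comparison by 0.11 on the log2 scale and left 45 members called, with 38 higher.

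**Figure D1:**
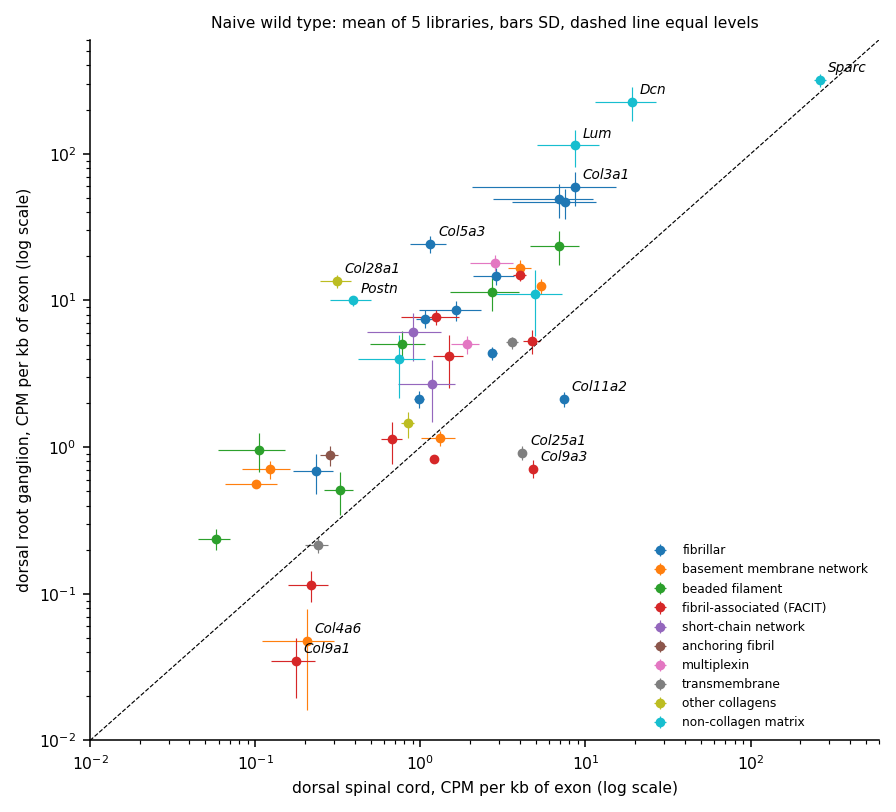
Level of each of the 48 members in naive wild-type dorsal root ganglion (y axis) against spinal cord (x axis), in CPM per kb of exon on log axes. Points are means of 5 libraries, bars are SDs, colours are structural roles and the dashed line marks equal levels. Most points lie above the line, with Col28a1 (40.7-fold), Postn and Col5a3 farthest from it, while Col9a3, Col25a1, Col11a2, Col9a1 and Col4a6 lie below.

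With nerve injury 10 members were called higher and 3 lower in wild-type DRG, with the largest change in Col5a3. In wild type, 13 of 47 members tested were called (Col9a1 was too low in DRG to test), 10 higher and 3 lower, and 24.9% of all 19496 genes were called (12.6% higher, 12.3% lower). In the knockout 15 of 47 were called, 13 higher and 2 lower, against 28.5% of all genes (15.1% higher, 13.3% lower). The members' share was thus near that of all genes. The median log2 fold change of the members was 0.15 in wild type (all genes -0.01) and 0.18 in the knockout (all genes 0.01), and in each genotype 37 members had a positive and 10 a negative fold change, called or not. Without libraries A2 and A4, 11 members were called in the knockout, 9 higher and 2 lower. The 2 genotypes have their own naive and injured libraries, so these fits share only the estimate of spread.

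The change in Col5a3 was the largest. Naive wild-type DRG held 184, 166, 189, 157 and 134 CPM, and injured wild-type DRG 602, 513, 538 and 510 CPM. In the knockout, naive libraries held 218, 220, 221, 231 and 205 CPM and injured ones 831, 759, 813 and 732 CPM. Every injured library was above every naive library in both genotypes. The change was 3.26-fold in wild type (log2 1.71 ± 0.09 SE, adjusted p = 3.33e-11) and 3.58-fold in the knockout (1.84 ± 0.09, adjusted p = 8.79e-12) by edgeR's quasi-likelihood test, as for all p-values here.

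Other type V chains rose less. Col5a2, which joins type V trimers, was at 158, 144, 142, 109 and 148 CPM in naive and 180, 170, 209 and 192 CPM in injured wild-type libraries, and at 130, 139, 138, 138 and 120 against 192, 226, 200 and 223 CPM in the knockout. The groups did not overlap in either genotype (1.34-fold, adjusted p = 0.00184, and 1.58-fold, adjusted p = 1.98e-05). Col5a1, the common chain of type V collagen, was called higher in the knockout (1.23-fold, adjusted p = 0.0311, lost without any 1 of A4, B4, C2, E2, F2 or F4), and its wild-type log2 fold change was 0.15 ± 0.1 (adjusted p = 0.318). Col24a1 (1.22-fold and 1.27-fold) and Col27a1 (1.23-fold and 1.31-fold), minor fibrillar collagens, were called higher in wild type and knockout. The wild-type calls were lost without A3 or C1 for Col24a1 (adjusted p 0.057 to 0.063) and without A3 or F1 for Col27a1 (adjusted p 0.052 to 0.0648). The abundant type I and III chains were not called. In wild type the log2 fold changes were 0.07 ± 0.18 for Col1a1, 0.03 ± 0.15 for Col1a2 and 0.09 ± 0.18 for Col3a1, and in the knockout 0.16 ± 0.18, 0.11 ± 0.15 and 0.3 ± 0.18.

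Col11a1, a fibrillar chain that nucleates thin fibrils, fell. It was at 63.4, 59.2, 50.3, 53.6 and 51.9 CPM in naive and 33.4, 35.4, 35.7 and 34.8 CPM in injured wild-type DRG, and at 51.7, 58.2, 62.8, 58.9 and 63.5 against 35.2, 37, 41 and 39.3 CPM in the knockout. Naive and injured libraries did not overlap in either genotype. The fall was 1.6-fold in wild type (log2 -0.68 ± 0.07, adjusted p = 1.57e-06) and 1.55-fold in the knockout (-0.63 ± 0.07, adjusted p = 3.3e-06). Its partner Col11a2 was not called (log2 0.09 in wild type and 0.14 in the knockout).

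Among the 6 type IV basement membrane chains, Col4a3 fell in both genotypes. Col4a3, part of the specialised network of kidney and lung, was at 6.15, 5.66, 5.15, 5.56 and 5.41 CPM in naive and 2.85, 2, 3.25 and 3.14 CPM in injured wild-type DRG. Knockout values were 5.59, 7.41, 5.18, 6.29 and 3.79 against 3.63, 3.21, 3.27 and 3.33 CPM. The groups did not overlap, with folds of 1.98 (adjusted p = 0.000149) and 1.68 (adjusted p = 0.00163) lower. Col4a4, whose 5′ end lies 72 bases from that of Col4a3 on chromosome 1 in the opposite direction, had log2 fold changes of -0.15 ± 0.12 (adjusted p = 0.386) and -0.17 ± 0.12 (adjusted p = 0.325). Col4a2, a chain of the common network, was called higher in wild type (1.22-fold, adjusted p = 0.0152) and not in the knockout (log2 0.2 ± 0.08, adjusted p = 0.0816), and Col4a1, which starts 21 bases from it on chromosome 8, was called in neither (0.21 ± 0.08, adjusted p = 0.0752, and 0.13 ± 0.08, adjusted p = 0.283).

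Col7a1, the collagen of anchoring fibrils that fasten basement membrane to stroma, was at 10.1, 7.57, 10.7, 9.36 and 7.55 CPM in naive and 19, 15.3, 17.8 and 15.3 CPM in injured wild-type DRG, and at 13.5, 11.3, 12.2, 12.9 and 11.6 against 24.3, 23.6, 24.9 and 21.2 CPM in the knockout. No injured library was as low as any naive library of its genotype. The rise was 1.86-fold (adjusted p = 3.07e-06) and 1.91-fold (adjusted p = 1.36e-06). Col7a1 was the sole anchoring-fibril member.

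The fibril-associated collagens split. Col16a1 rose from 108, 102, 109, 101 and 86.4 CPM to 125, 124, 144 and 123 CPM in wild type (1.27-fold, adjusted p = 0.00088), and from 111, 101, 111, 117 and 104 CPM to 137, 130, 140 and 142 CPM in the knockout (1.26-fold, adjusted p = 0.00104), without overlap. Col19a1, a collagen of synapses and muscle, fell in wild type from 5.77, 5.83, 6.07, 5.43 and 5.27 CPM to 3.02, 3.39, 3.62 and 5.37 CPM (1.47-fold, adjusted p = 0.00507), where the highest injured library lay within the naive range. In the knockout it was at 5.67, 5.17, 5.67, 6.06 and 5.73 CPM naive and 3.75, 5.06, 4.39 and 5.08 CPM injured. Those groups did not overlap, but the change was not called (log2 -0.31 ± 0.14, adjusted p = 0.103). The other 6 tested members of this class were called in neither genotype. No beaded-filament chain was called in wild type, and in the knockout only Col6a4 was (1.99-fold, adjusted p = 0.0136, and 0.0524 without E4). The multiplexins, basement membrane collagens whose ends can be released as angiogenesis inhibitors, were called higher in the knockout (Col18a1 1.39-fold, adjusted p = 0.00126, and Col15a1 1.33-fold, adjusted p = 0.0437), and Col18a1 also in wild type (1.27-fold, adjusted p = 0.014, and 0.0555 without E3). The Col15a1 call was lost without any 1 of 9 libraries (A2, A4, B1, B2, B4, C2, E4, F1 or F4, adjusted p 0.0517 to 0.193). Reads of Col18a1 can be shared with Slc19a1, which overlaps it, if strand was not used in counting, which the sources do not state.

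Of the non-collagen genes, Timp1 and Postn rose in both genotypes. Timp1 was at 2.93, 4.95, 2.49, 1.85 and 5.63 CPM in naive and 6.95, 9.9, 9.59 and 8.12 CPM in injured wild-type DRG, and at 2.15, 2.93, 3, 2.57 and 3.88 against 7.04, 6.33, 8.93 and 7.35 CPM in the knockout. The groups did not overlap (2.41-fold, adjusted p = 0.000761, and 2.55-fold, adjusted p = 0.000519). Timp1 lies within Syn1, a neuronal gene on the opposite strand (111 CPM in DRG and 304 CPM in cord), so reads of the 2 genes cannot be told apart there if strand was not used. Postn was at 97.8, 81.9, 86.5, 81.5 and 89.4 CPM in naive and 119, 107, 123 and 98.4 CPM in injured wild-type DRG (1.28-fold, adjusted p = 0.000398), and at 71.3, 69.1, 70.4, 70.8 and 69.8 against 101, 101, 105 and 109 CPM in the knockout (1.48-fold, adjusted p = 2.69e-06), without overlap.

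Lum, Dcn, Fn1 and Sparc were not called in wild type. Lum was at 338, 324, 195, 193 and 347 CPM in naive and 243, 471, 314 and 374 CPM in injured wild-type DRG (log2 0.33 ± 0.19, adjusted p = 0.244). In the knockout it was at 130, 170, 159, 131 and 150 CPM naive and 189, 219, 208 and 243 CPM injured (1.45-fold, adjusted p = 0.0437), a call that was lost without any 1 of 9 libraries (A2, B2, B4, C2, E4, F1, F2, F3 or F4, adjusted p 0.0503 to 0.137). Dcn was at 1371, 1590, 944, 993 and 1693 CPM in naive and 883, 1976, 1270 and 1871 CPM in injured wild-type DRG, and at 693, 951, 931, 811 and 700 against 885, 1003, 961 and 1214 CPM in the knockout, with overlap in both (log2 0.19 ± 0.21, adjusted p = 0.589, and 0.31 ± 0.21, adjusted p = 0.301). Fn1 ranged from 79 to 230 CPM in naive and 92 to 197 CPM in injured wild-type DRG (log2 0.25 ± 0.31), and from 66.4 to 129 against 94 to 178 CPM in the knockout (0.46 ± 0.31), and was not called. Sparc was at 982 to 1313 CPM in naive and 1297 to 1418 CPM in injured wild-type DRG (log2 0.16 ± 0.08, adjusted p = 0.167), and at 975 to 1157 against 1104 to 1251 CPM in the knockout (0.17 ± 0.08, adjusted p = 0.124). The 2 DRG libraries with the lowest summed sensory neuron markers, E3 and F3 (2371 and 2321 CPM), had the highest Dcn of all 18. With a sensory neuron score as a covariate, a setting added after the data were seen, Dcn turned lower with injury in wild type (log2 -0.43) and in the knockout (-0.46), past the threshold in both, and the score itself fell with injury.

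**Figure D2:**
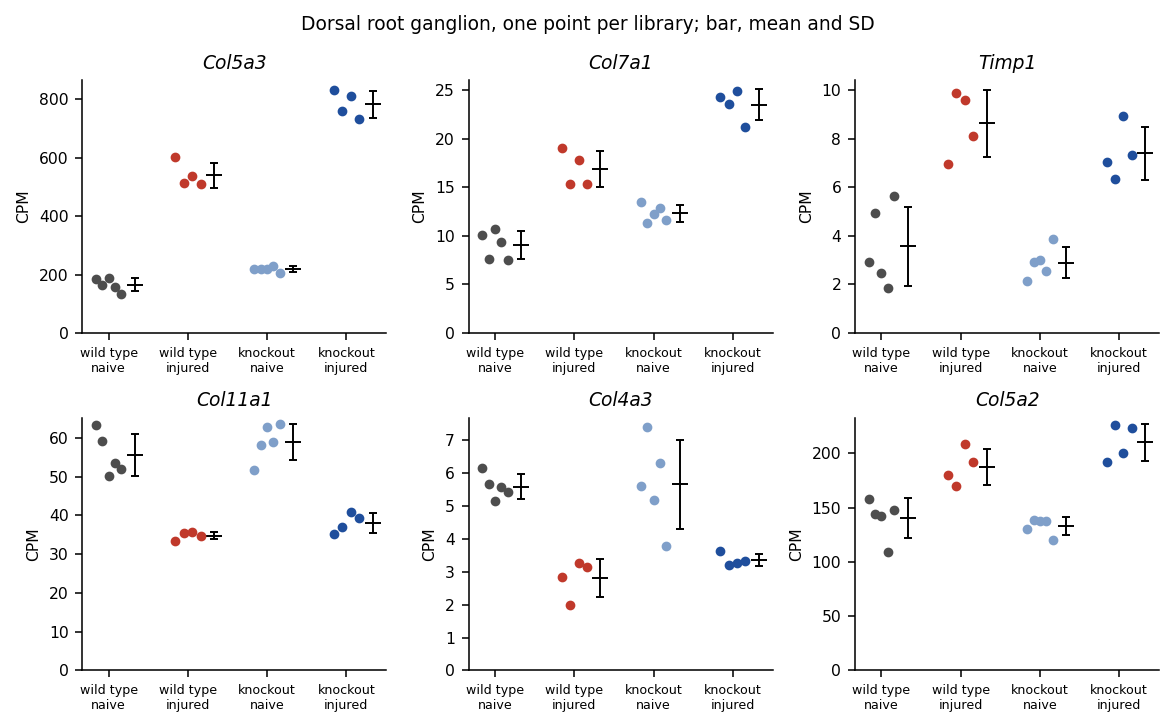
CPM (y axis, from 0) of 6 members in each of the 18 dorsal root ganglion libraries, by genotype and injury. Points are libraries and the bar beside them is the mean and SD. Injured libraries lie above all naive libraries of their genotype for Col5a3, Col7a1, Timp1 and Col5a2, and below them for Col11a1 and Col4a3.

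**Figure D3:**
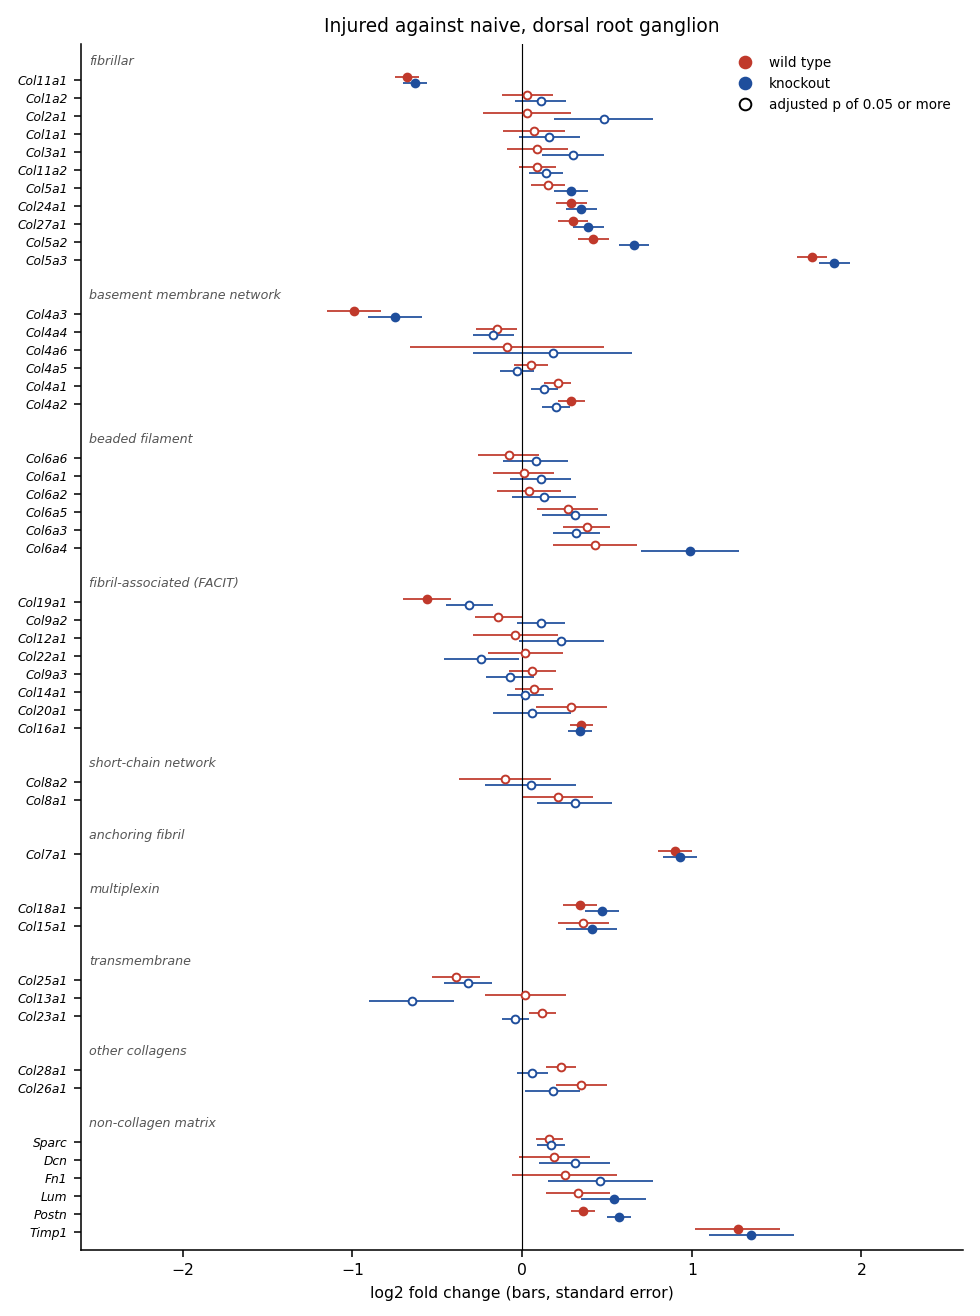
log2 fold change (x axis) of injured against naive dorsal root ganglion for the 47 members tested, by structural role, in wild type (red) and knockout (blue). Bars are standard errors and open symbols have an adjusted p of 0.05 or more. Among the called members, Col5a3 (1.71 and 1.84), Timp1, Col7a1 and, in the knockout, Col6a4 (0.99) stand to the right. Col4a3 and Col11a1 stand to the left, and most other members lie near 0.

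Genes that make, cross-link, cut or sense collagen were followed as lists. Over all genes 24.9% were called with injury in wild-type DRG and 28.5% in the knockout, and no list was tested as a set against those shares. Of 31 collagen processing genes, 5 rose and 3 fell with injury in wild-type DRG and 6 rose and 3 fell in the knockout. Loxl2, a cross-linking enzyme, was 2.8-fold higher in wild type (adjusted p = 5.85e-09) and 3.56-fold in the knockout, and Bmp1, the procollagen C-proteinase, 2.01-fold and 1.97-fold, while Tll1, a related proteinase, was 1.69-fold and 1.63-fold lower. Of 22 metalloproteinases and TIMPs tested, 6 rose and 1 fell in wild type and 5 rose and 2 fell in the knockout. Mmp16, a membrane metalloproteinase, was at 56.3 CPM injured against 9.21 CPM naive in wild type (6.12-fold) and 62.2 against 7.21 CPM in the knockout (8.63-fold). Laminins and other basement membrane genes had 4 of 15 higher and 0 lower in wild type, and 3 higher and 0 lower in the knockout, with Lama5 at 2.02-fold and 2.19-fold and Lamb3 at 8.41-fold and 6.62-fold. The matricellular and elastic fibre list (32 genes) had 3 higher and 2 lower in wild type and 8 higher and 5 lower in the knockout. Collagen receptors had 5 of 16 higher and 0 lower in wild type and 7 higher and 1 lower in the knockout, among them Itgb1, the shared chain of the collagen-binding integrins (1.38-fold and 1.52-fold). Proteoglycans had 2 of 23 higher and 4 lower in wild type and 4 higher and 5 lower in the knockout. TGF-beta pathway genes had 4 of 12 higher and 1 lower, and 6 higher and 2 lower, among them its receptor gene Tgfbr1, which was 1.39-fold and 1.53-fold higher. All 8 macrophage markers were higher in injured DRG of both genotypes (summed 387 to 689 CPM against 136 to 263 CPM in wild type, 351 to 497 against 94.5 to 172 CPM in the knockout), and 2 and 3 of 5 sensory neuron markers were lower. The part of macrophage content in the matrix changes was not tested.

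No member was called for a different injury response between the genotypes in DRG. The interaction of genotype and injury called 0 of 47 members, against 0.0256% of all genes. The members' log2 differences ran from -0.67 to 0.56, and the simulated check did not cover this interaction. DESeq2 and limma on the authors' normalised values also called 0. At an unadjusted p under 0.05 there was 1 member, Postn (log2 0.21 ± 0.09 more injury response in the knockout, adjusted p = 0.835).

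Several collagen and matrix genes differed between genotypes in naive DRG, more of them lower than higher in the knockout. Of 47 members, 14 (29.8%) were called, 5 higher and 9 lower, and 28.2% of all genes were called (12.8% higher, 15.4% lower). The members' share was thus near that of all genes. Blood markers differed between the same groups, as given below. The median log2 fold change was -0.15 over the members and -0.02 over all genes. Without libraries A2 and A4, 11 were called (4 higher, 7 lower). With plain library sizes 17 were called (5 higher, 12 lower), and the share of higher calls over all genes moved from 45.3% to 34.7%. Leaving out wild-type library B3 raised the members called to 22. The naive libraries also serve in the injury comparisons.

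The largest fall was in Col2a1, the collagen of cartilage. Naive wild-type libraries held 6.58, 9.53, 4.72, 5.69 and 5.27 CPM and knockout ones 2.4, 2.29, 1.89, 1.52 and 2.45 CPM, without overlap (3.01-fold, log2 -1.59 ± 0.26, adjusted p = 0.000574). In injured DRG the values were 3.31, 9.72, 6.38 and 6.57 CPM against 2.05, 3.98, 2.57 and 3.19 CPM, with overlap (2.2-fold lower, adjusted p = 0.025), and this call was lost without any 1 of 5 libraries (E2, E3, F2, F3 or F4, adjusted p 0.0523 to 0.109). Of 5 cartilage markers tested, 1 was called higher and 1 lower in naive knockout DRG, where 28.2% of all genes were called. Their median log2 fold change was -0.24. Summed cartilage markers were at 48.1 to 60.2 CPM in naive wild-type and 53.6 to 61.1 CPM in naive knockout libraries. Of the listed markers, Matn1 and Acan were at 0 to 0.0459 CPM and 0.256 to 1.39 CPM in DRG. Comp was at 19.6 to 27.3 CPM in naive knockout and 9.85 to 19.9 CPM in naive wild-type libraries. Epyc, a cartilage gene outside that marker list, went the other way, with means of 3.57 CPM in naive knockout and 9.16 CPM in naive wild-type DRG. The part of cartilage in the Col2a1 difference was not tested.

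Col15a1 was at 131, 127, 112, 95.8 and 108 CPM in naive wild-type and 70.5, 76.3, 76.7, 62.7 and 64.4 CPM in naive knockout DRG, without overlap (1.64-fold lower, adjusted p = 0.0022). In injured DRG it was at 96.5, 173, 150 and 169 CPM against 78.7, 100, 82.1 and 112 CPM (1.58-fold lower, adjusted p = 0.0174, lost without any 1 of E2, E3, F2 or F3 at adjusted p 0.0625 to 0.0728). Col15a1 lies on chromosome 4, 5.5 megabases from the knocked-out gene and nearer to it than any other member. Whether sequence near the knocked-out gene also differs between the genotypes was not tested. Col20a1, a fibril-associated collagen, was at 7.66, 7.99, 5.01, 4.5 and 3.95 CPM in naive wild-type and 2.19, 3.15, 3.41, 2.16 and 2.77 CPM in naive knockout DRG (2.12-fold lower, adjusted p = 0.00188), and at 5.33, 8.08, 6.83 and 8.12 against 3.24, 2.67, 2.1 and 3.37 CPM in injured DRG (2.48-fold lower, adjusted p = 0.00172). The groups did not overlap in either state. Another gene model on the same strand overlaps Col20a1, so how reads were split between them is uncertain.

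Lum and Postn were lower in naive knockout DRG in every library, by 1.89-fold (adjusted p = 0.00253) and 1.24-fold (adjusted p = 0.0022). In injured DRG Lum was 0.7 lower on the log2 scale with an adjusted p of 0.0532, and Postn differed by -0.11 ± 0.07. Dcn was lower in naive knockout DRG (1.61-fold, adjusted p = 0.02) with overlapping libraries, a call lost without any 1 of A2, A3 or C1 (adjusted p 0.0539 to 0.0628). The difference in injured DRG was -0.56 ± 0.23 (adjusted p = 0.162). Fn1, Sparc and Timp1 were called in neither state. Col6a4 was at 2.5, 1.58, 2.01, 1.99 and 2.07 CPM in naive wild type and 0.373, 0.549, 1.32, 1.06 and 0.878 CPM in naive knockout DRG (2.42-fold lower, adjusted p = 0.00336), with no overlap. Col26a1, a minor secreted collagen, was at 14.6, 12.8, 11.7, 7.99 and 12 CPM against 9.81, 7.82, 8.84, 5.51 and 7.3 CPM in naive DRG (1.5-fold lower, adjusted p = 0.00865) and at 14.7, 16.2, 13.8 and 15.6 against 8.92, 8.95, 7.9 and 9.98 CPM in injured DRG (1.68-fold lower, adjusted p = 0.00833), where the groups did not overlap. Col1a1 was also called lower in naive knockout DRG (1.39-fold, adjusted p = 0.0446), a call lost without any 1 of 14 of the 18 DRG libraries (adjusted p 0.0502 to 0.127), and Col28a1 in injured knockout DRG, at 96.1, 66.1, 77.9 and 71.9 CPM against 60.1, 65.2, 58.8 and 58.9 CPM (1.28-fold, adjusted p = 0.0418). The injured groups did not overlap for Col28a1, and the call was lost without any 1 of C2, E1, E2, F2 or F4.

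Of the members that rose with injury in both genotypes, Col5a3, Col7a1 and Col24a1 were called higher in the knockout in both states. Postn was lower in naive knockout DRG, and Col5a2, Col27a1, Col16a1, Col18a1 and Timp1 were called between genotypes in neither state. Col5a3 was 1.32-fold higher in naive (adjusted p = 0.00237) and 1.45-fold higher in injured knockout DRG (adjusted p = 0.000926), Col7a1 1.36-fold (adjusted p = 0.00564) and 1.39-fold (adjusted p = 0.0119), and the knockout libraries lay above all wild-type libraries of the same state for both. Col24a1 was at 69.4, 50.2, 59.7, 56.7 and 49.9 CPM in naive wild type and 71, 78.8, 80.8, 82.8 and 65 CPM in naive knockout DRG, and at 74.6, 64.4, 72.1 and 68 against 102, 92, 94.3 and 97.7 CPM in injured DRG. It was 1.32-fold (adjusted p = 0.00345) and 1.38-fold (adjusted p = 0.00563) higher, with overlap in the naive state alone. Col4a5 was at 8, 7.74, 7.71, 6.27 and 8.8 CPM against 10, 9.78, 9.29, 10.3 and 10.5 CPM in naive DRG (1.29-fold higher, adjusted p = 0.0116). Col9a3 was at 3.4, 2.66, 2.52, 2.43 and 2.71 CPM against 4.27, 3.79, 4.4, 3.35 and 2.77 CPM (1.36-fold higher, adjusted p = 0.0231), and the call was lost without any 1 of A2, A3, B2 or C1. In injured DRG, 8 of 47 members were called, 3 higher and 5 lower, against 5.1% of all genes (2.39% higher, 2.71% lower), with median log2 fold changes of -0.09 over the members and 0.01 over all genes. A fit of the injured groups alone called 5, and leaving out F2 left 5.

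**Figure D4:**
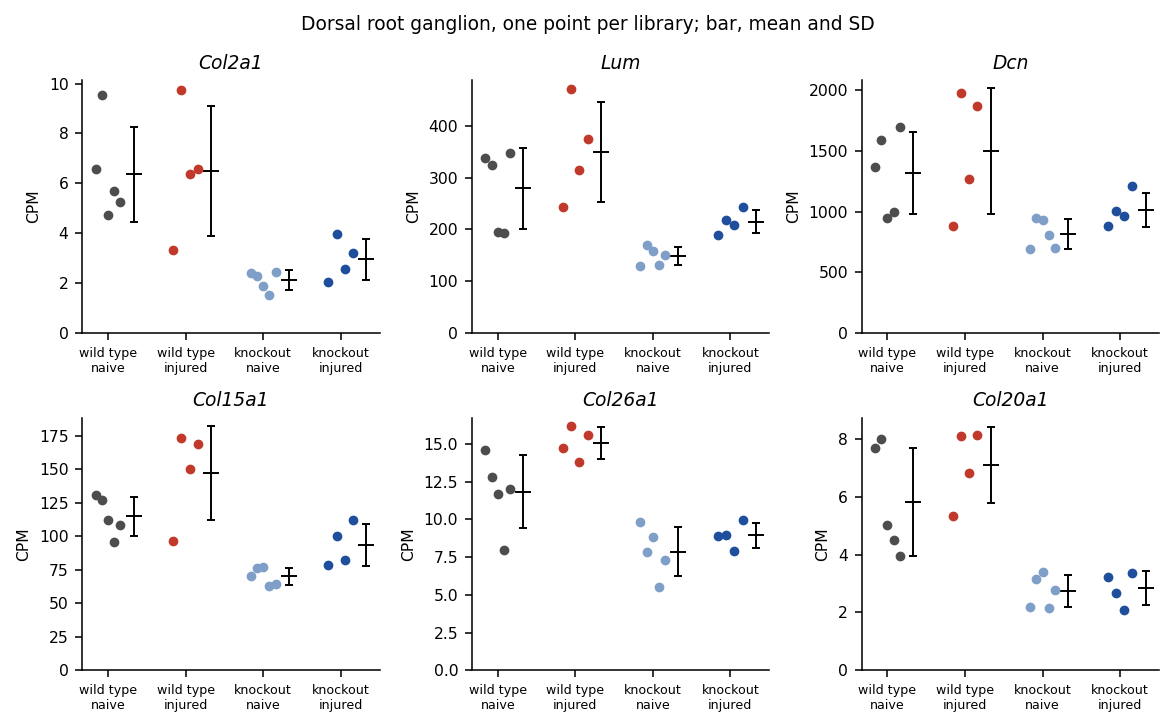
CPM (y axis, from 0) of 6 members that were called lower in knockout than in wild-type naive dorsal root ganglion, in each of the 18 libraries. Points are libraries and the bar beside them is the mean and SD. Knockout libraries lie below all naive wild-type libraries for Col2a1, Lum, Col15a1 and Col20a1, and overlap them for Dcn and Col26a1.

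Cell markers moved with the genotype in naive DRG, where 28.2% of all genes were called. All 5 blood markers (summed 737 to 3540 CPM in wild type, 191 to 610 CPM in the knockout) and all 8 neutrophil markers (71.6 to 403 against 18.4 to 65.2 CPM) were called lower in the knockout, as were 5 of 8 macrophage, 4 of 9 mural cell and 4 of 7 endothelial markers. Sensory neuron markers were higher for 2 of 5 (2938 to 4393 against 4419 to 5328 CPM). Of 4 satellite glia markers 3 were higher and 1 lower (summed 898 to 1287 against 879 to 1045 CPM), and 2 of 6 perineurial markers were higher (162 to 245 against 154 to 205 CPM). Of 8 fibroblast markers 2 were lower (471 to 587 against 420 to 530 CPM), and none of the 8 meningeal fibroblast markers was called. With a blood marker score as a covariate, 3 members were called (2 higher, 1 lower). In that fit the log2 fold changes were -1.46 for Col2a1 (adjusted p = 0.0699), -1 for Col20a1 (adjusted p = 0.108), -0.51 for Col15a1 (adjusted p = 0.261), -0.42 for Lum (adjusted p = 0.522), -0.04 for Dcn (adjusted p = 0.978), 0.25 for Col5a3 (adjusted p = 0.308) and 0.22 for Col7a1 (adjusted p = 0.519). Blood marker level and genotype cannot be told apart in these naive libraries. In injured DRG, where 5.1% of all genes were called, 0 of 5 blood and 0 of 8 neutrophil markers were called. Their median log2 fold changes in the knockout were -0.56 and -0.96, against -2.13 and -1.96 in naive DRG. Summed blood markers in injured DRG were at 456 to 1630 CPM in wild type and 376 to 882 CPM in the knockout, and neutrophil markers at 51.3 to 301 against 58.5 to 124 CPM. These counts do not show that the difference was absent after injury. Col5a3, Col7a1, Col24a1, Col20a1, Col26a1, Col2a1 and Col15a1 were called in the same direction in both states. The injured calls of Col2a1 and Col15a1 were lost without any 1 of 5 and any 1 of 4 libraries. Median changes of blood and neutrophil markers were negative in both states, so these repeated calls do not separate genotype from blood marker level. For the injured difference, the fit with the blood score called 9 members, and fits with fibroblast and sensory neuron scores were also run. A count of calls does not give the part of blood in any single gene. The part of neutrophils, macrophages, mural and endothelial cells was not tested.

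Other matrix genes were followed in knockout DRG as lists. In naive DRG 28.2% of all genes were called (12.8% higher, 15.4% lower), and no list was tested as a set against that share. Collagen processing genes had 5 of 31 higher and 5 lower, metalloproteinases and TIMPs 4 of 22 higher and 4 lower, laminins 2 of 15 higher and 3 lower, proteoglycans 4 of 23 higher and 4 lower, and the matricellular list 4 of 32 higher and 8 lower. Collagen receptors had 1 of 16 higher and 4 lower, and TGF-beta genes 0 of 12 higher and 1 lower. Mmp2, a gelatinase made by fibroblasts, was 1.77-fold lower (49.5 against 87.5 CPM) and remained lower in injured DRG (1.65-fold, 78.7 against 130 CPM). Epyc, a small proteoglycan of cartilage, was 2.56-fold and 2.61-fold lower, and Ltbp2, a binding protein of elastic fibres, 2.61-fold and 2.18-fold higher. In injured DRG 5.1% of all genes were called. The lists there had 2 higher and 2 lower metalloproteinases and TIMPs, 1 lower proteoglycan and 1 higher and 1 lower matricellular gene. None was called among collagen processing genes, laminins, receptors and TGF-beta genes.

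In spinal cord few members were called with injury, and Timp1 changed most. In wild type 3 of 48 were called, all higher, against 2.88% of all 18843 genes (2.61% higher, 0.271% lower). In the knockout 4 of 48 were called, 2 higher and 2 lower, against 4.42% of all genes (3.79% higher, 0.626% lower). The median log2 fold change of the members was -0.05 in wild type and -0.18 in the knockout, where that of all genes was -0.01 in both, and 28 and 41 of the 48 members had a negative fold change, called or not. The counts rest on few libraries. Leaving out E7 took the wild-type count to 0, leaving out A7, B7, C5 or F5 took it to 1, and in the knockout leaving out E5 gave 7 and leaving out E6 gave 2.

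Timp1 rose from 0.909, 0.491, 1.02, 0.485 and 0.392 CPM to 1.4, 1.77, 1.24 and 1.2 CPM in wild-type cord (2.12-fold, adjusted p = 0.0483), and from 0.28, 0.317, 0.865, 0.26 and 0.401 CPM to 2.55, 2.18, 1.63 and 1.36 CPM in knockout cord (4.51-fold, log2 2.17 ± 0.31, adjusted p = 3.54e-05). No injured library overlapped a naive one in either genotype. Timp1 was near the floor in cord, with naive means of 0.659 CPM in wild type and 0.425 CPM in the knockout, below 1 CPM. Syn1, the gene on the opposite strand that holds Timp1, was at 304 CPM in cord, so the limit on shared reads given for DRG applies here too. The wild-type call was lost without any 1 of 11 libraries (A7, A8, B7, C5, C6, E5, E7, E8, F5, F6 or F7, adjusted p 0.0533 to 0.187), while the knockout call held without each of the 18. With limma on the authors' normalised values, and with the blood score as a covariate, 0 members were called in wild-type cord. Col16a1 rose in both genotypes, from 29.7, 25.4, 28.8, 24.3 and 26.9 CPM to 29.1, 34.7, 32.9 and 30.2 CPM in wild type, with overlap (1.18-fold, adjusted p = 0.0421, lost without any 1 of A7, B7, C5, E7 or F5), and from 29.9, 29.9, 33.9, 30.2 and 31 CPM to 39, 36, 35.6 and 40.3 CPM in the knockout, without overlap (1.22-fold, adjusted p = 0.00552). Col27a1 was called in wild type, at 14.1, 12.1, 13.2, 12.4 and 12 CPM naive and 13, 21.7, 17.3 and 16.6 CPM injured (1.35-fold, adjusted p = 0.0169), and not without E7 (adjusted p = 0.0967). Its knockout change was 0.28 ± 0.1 on the log2 scale (adjusted p = 0.156).

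Col11a1 and Col25a1 fell in knockout cord. Col11a1 was at 46.6, 48.4, 49.6, 44.1 and 40.1 CPM naive and 34.2, 42.4, 35.3 and 37.5 CPM injured (1.23-fold lower, adjusted p = 0.00822, and 0.0507 without E6), with overlap. In wild-type cord it was at 36.2, 31.6, 37.1, 35 and 33.8 CPM naive and 31.4, 36.8, 34.1 and 36 CPM injured (log2 -0.01 ± 0.07). Col25a1 was at 59.6, 55.1, 57.6, 58.7 and 57 CPM naive and 48.9, 53, 52.1 and 52.5 CPM injured in the knockout, without overlap (1.12-fold lower, adjusted p = 0.0374), and that call was lost without any 1 of 8 libraries (A6, B7, B8, C6, E6, E8, F6 or F8, adjusted p 0.0517 to 0.169). The interaction of genotype and injury in cord called 0 of 48 members and 0% of all genes with edgeR, and DESeq2 and limma called 0 members. At an unadjusted p under 0.05 there were 5 members (Col24a1, Col11a1, Col4a2, Timp1 and Col20a1, lowest adjusted p = 0.737), so the larger Timp1 rise in knockout cord was not separated from that in wild type (log2 difference 1.09 ± 0.44, adjusted p = 0.758).

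Between genotypes in naive cord, 8 of 48 members (16.7%) were called, 6 higher and 2 lower in the knockout. Of all genes 19.7% were called (9.79% higher, 9.94% lower), so the members' share was not above that of all genes. Over all genes limma on the authors' normalised values moved the share of higher calls from 49.6% to 34.6%, with 5 members higher and 2 lower. The medians of log2 fold change were -0.09 over the members and -0.01 over all genes. Col11a1, with the values given above, was 1.32-fold higher in naive knockout cord, without overlap (adjusted p = 0.000124). Col19a1 was at 8.62, 8.61, 8.51, 8.33 and 7.61 CPM against 11.1, 10.5, 10.3, 11 and 10.4 CPM, without overlap (1.28-fold higher, adjusted p = 0.00149). Col5a3 was at 9.74, 7.58, 9.66, 7.16 and 5.13 CPM against 9.94, 13.6, 14.7, 10.5 and 10.6 CPM, without overlap (1.51-fold higher, adjusted p = 0.00765), and Col7a1 at 2.86, 2.32, 2.92, 3.28 and 3.13 against 4.58, 3.98, 4.28, 4.2 and 3.21 CPM, with overlap (1.39-fold higher, adjusted p = 0.0122). Both genes were called higher in naive knockout DRG as well. Col4a2 was at 38.8, 33.5, 36, 36 and 33.8 CPM against 47.5, 42.6, 47.9, 41.8 and 37.8 CPM (1.22-fold higher, adjusted p = 0.00768), and Col16a1 was 1.15-fold higher (adjusted p = 0.0216, lost without any 1 of A7, B6 or B7). In naive cord 4 of 5 blood markers (summed 170 to 482 CPM in wild type, 137 to 172 CPM in the knockout) and 2 of 7 Schwann cell markers (658 to 1249 against 406 to 949 CPM) were lower in the knockout. With the blood score as a covariate 1 member was called.

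Col26a1 was lower in knockout cord in both states, at 7.67, 7.41, 6.6, 6.35 and 6.39 CPM against 4.86, 4.25, 5.05, 4.02 and 3.97 CPM in naive cord (1.55-fold, adjusted p = 0.00139) and at 5.33, 7.88, 7.06 and 7.91 CPM against 3.05, 4.41, 2.83 and 4.56 CPM in injured cord (1.9-fold, adjusted p = 0.000205). The genotypes did not overlap in either state, and with the DRG values Col26a1 was called lower in the knockout in all 4 comparisons of genotype. Col28a1 was at 1.82, 1.2, 1.91, 1.54 and 1.22 CPM against 0.794, 1.4, 0.91, 0.649 and 0.58 CPM in naive cord (1.77-fold lower, adjusted p = 0.0184, and 0.0551 without B8). In injured cord, 4 of 48 members were called, 1 higher and 3 lower, against 6.26% of all genes (2.95% higher, 3.31% lower). The medians of log2 fold change there were -0.11 over the members and 0 over all genes. Col20a1 was lower there, at 2.71, 4.7, 3.51 and 3.4 CPM against 1.86, 2.09, 2.25 and 2.15 CPM, without overlap (1.71-fold, adjusted p = 0.00222). Col23a1, a transmembrane collagen, was at 19.1, 22, 27.1 and 23.8 CPM against 17.2, 21.4, 17.3 and 16.4 CPM, with overlap (1.27-fold lower, adjusted p = 0.0353, lost without any 1 of E6, E7, F5, F6, F7 or F8 at up to adjusted p = 0.134). Col16a1 was 1.19-fold higher (adjusted p = 0.0211), lost without any 1 of E5, E6, F7 or F8. Without E6, F7 or F8 2 members were called.

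Col1a1, Col1a2 and Col3a1 were called in no comparison within cord, and they varied widely between libraries. Col3a1 was at 186, 53, 112, 38.2 and 34.3 CPM in naive wild-type and 23, 53.6, 108, 38.7 and 53 CPM in naive knockout cord, and at 58, 46.2, 64.7 and 33.7 against 28.5, 41.5, 33.6 and 21.1 CPM in injured cord. The 3 highest values belonged to A5, B5 and B6, the 3 libraries with the highest summed meningeal fibroblast markers (108, 82.5 and 87.8 CPM, against 36.3 to 71.7 CPM in the other 15). Col1a1 (88.4, 56.6 and 62.8 CPM) and Dcn (173, 143 and 112 CPM) were highest in the same 3. Schwann cell markers summed to 1249 and 1131 CPM in A5 and B5 and to 839 CPM in B6, against 380 to 1068 CPM in the other 15. With a meningeal score as a covariate, 18 of 19 calls within cord were kept. None of those calls was of Col1a1, Col1a2, Col3a1 or Dcn, so the count does not cover these genes.

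Other matrix lists in cord had few calls with injury, where 2.88% of all genes were called in wild type and 4.42% in the knockout. In wild type 3 of 15 collagen receptors and 2 of 12 TGF-beta genes were higher, 2 of 20 metalloproteinases and TIMPs and 1 of 21 proteoglycans were lower, and none of the collagen processing, laminin and matricellular genes was called. The same receptors, Itgb5 (1.45-fold in wild type, 1.62-fold in the knockout), Cd44 (1.65-fold and 1.63-fold) and Lair1 (1.7-fold and 1.67-fold), and the same TGF-beta genes, Tgfb1 (1.79-fold and 1.99-fold) and Tgfbr1 (1.4-fold and 1.41-fold), were called in both genotypes. Microglia and macrophages express several of these genes, and 6 of 8 macrophage markers were higher in injured cord in each genotype (346 to 384 CPM against 157 to 188 CPM in wild type). Their part in these changes was not tested.

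The joint fit tested where the tissues differed. The injury response of wild-type DRG minus that of wild-type cord was called for 5 of 48 members, 3 larger and 2 smaller in DRG, against 12.5% of all genes (5.59% higher, 6.92% lower). The medians were 0.24 over the members and -0.03 over all genes. Col5a3 differed by 1.6 ± 0.17 on the log2 scale (adjusted p = 1.9e-08), Col7a1 by 0.9 ± 0.17 (adjusted p = 0.000305) and Col5a2 by 0.56 ± 0.19 (adjusted p = 0.0443), while Col11a1 (-0.68 ± 0.1, adjusted p = 8.45e-06) and Col19a1 (-0.54 ± 0.15, adjusted p = 0.0152) fell more in DRG. In wild-type cord itself Col5a3 changed by 0.1 ± 0.16 and Col7a1 by -0.02 ± 0.14. The Col19a1 difference was lost without E1 (adjusted p = 0.0705), and that of Col5a2 without any 1 of 11 libraries (A5, B1, B3, B5, E5, E6, E7, F1, F2, F3 or F7, adjusted p 0.0531 to 0.0934). Timp1, called in both tissues, was not among the 5. Over all genes, limma on the authors' normalised values moved the share of higher calls from 44.7% to 55.6% and called 4 members, 2 in each direction.

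The knockout effect in naive DRG minus that in naive cord was called for 2 of 48 members, Col11a1 (-0.3 ± 0.1, adjusted p = 0.0278) and Col20a1 (-0.76 ± 0.25, adjusted p = 0.0309), both lower in DRG. With the number that DRG and cord libraries share as a replicate block, 5 were called (1 higher, 4 lower), Col11a1 and Col20a1 among them. Over all genes 19.6% were called (11.4% higher, 8.24% lower), and the median was -0.04 over the members and 0 over all genes. The share of higher calls over all genes was 58.1%, against 68.7% with DESeq2 and 39% with plain library sizes, and the members called were then 6 (3 higher, 3 lower) and 5 (0 higher, 5 lower). Neither call held without libraries A2 and A4, where 0 members were called with edgeR. The Col11a1 call was also lost without any 1 of 7 libraries (A1, A2, A3, A7, A8, B6 or C5) and the Col20a1 call without any 1 of 8 (A1, A2, A3, A6, B4, B7, B8 or C5). In naive DRG Col11a1 differed between genotypes by 0.08 ± 0.07 on the log2 scale (adjusted p = 0.358), and in naive cord by 0.4 ± 0.06.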

How the data were processed

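RNA from 18 dorsal root ganglion and 18 spinal cord libraries was sequenced from stranded mRNA libraries, per the labels' protocols. Tools named in the submitters' processing notes are FastQC (0.11.5), RSEM and HISAT2, the last 2 without a version, and the build named is GRCm38. The authors deposited expected counts per gene (21343031 to 27269039 per library), and a table of normalised signal that the authors made from them. The deposited column of library E1 held decimal commas in 9150 cells, which were converted, and 1 unreadable cell was restored from the normalised table. Counts were rounded.

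edgeR 4.0.16 (TMM, filterByExpr, robust quasi-likelihood F test, R 4.3.3) was fitted to the 4 groups of each tissue (19496 and 18843 genes) and to all 36 libraries (20626 genes), with Benjamini-Hochberg adjustment over all genes. The test was checked on simulated data: for injury in wild-type DRG (19202 genes), 74% of log2 changes of 1 and 93.9% of log2 changes of 2 were recovered, with 11 false calls over both. DESeq2 1.42.0, limma 3.58.1 on log2(value + 1), plain library sizes, no filter, marker scores as covariates, single libraries left out and a replicate block were alternatives. Up to 6 called members per direction and comparison, the 6 non-collagen genes and up to 3 companion genes per list were named with full values, and other called members by role. Members and lists were chosen with earlier results of these data known. Same-numbered wild-type and knockout libraries were not paired (correlations -0.22 to 0.44). Same-numbered DRG and cord libraries correlated at 0.18 to 0.4 in naive wild type, 0.1 to 0.37 in naive knockout and 0.01 to 0.29 after injury. The level of the gene knocked out is not reported here.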

Additional observations from a re-analysis of the deposited data

Results flagged for a closer look

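In 7 of 109 sets of values checked (1 member in 1 group of 4 or 5 libraries) a single library stood apart from the rest by Dixon's gap test, which by its construction marks about 1 in 20 groups by chance. In naive wild-type DRG, Col9a3 was at 3.4 CPM in library A1 (2.43 to 2.71 in the others) and Sparc at 982 CPM in B3 (1229 to 1313). In injured wild-type DRG, Col16a1 was at 144 CPM in F1 (123 to 125). In naive cord, Col19a1 was at 7.61 CPM in wild-type C5 (8.33 to 8.62), and in knockout B6 Col16a1 was at 33.9 CPM (29.9 to 31) and Timp1 at 0.865 CPM (0.26 to 0.401). In injured knockout cord, Col23a1 was at 21.4 CPM in E8 (16.4 to 17.3).

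The wild-type injury response differed between DRG and cord for 5 members by edgeR's quasi-likelihood test of the difference. The log2 differences were 1.6 for Col5a3, 0.9 for Col7a1, 0.56 for Col5a2, -0.68 for Col11a1 and -0.54 for Col19a1. The knockout effect in naive mice differed by -0.3 for Col11a1 and -0.76 for Col20a1.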

How the results depend on the processing

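Of 76 calls of single members (all but those between tissues in naive wild type), 50 held without any 1 library. DESeq2 lost 1 of 76, plain library sizes 1 of 76, no filter 9 of 76, limma on the authors' normalised values 15 of 76, the blood score 29 of 69, and the sensory neuron score 21 of 69 with 1 more reversed. Leaving out each library in turn, members called ranged from 11 to 22 for the knockout in naive DRG, 5 to 11 in injured DRG and 2 to 5 in injured cord, from 0 to 3 for injury in wild-type cord and 2 to 7 in knockout cord, and from 0 to 5 for the knockout effect of DRG minus cord. The blood score left 3 members called for the knockout in naive DRG, 1 in naive cord and 0 for injury in wild-type cord. The sensory neuron score left 1 for injury in wild-type cord, 0 in knockout cord and 4 for the knockout in naive cord, and the fibroblast score gave 13 in naive and 8 in injured cord. Fits of the compared groups alone gave 5 for the knockout in injured DRG and 1 for injury in wild-type cord. Limma gave 0 for injury in wild-type cord, 2 for the knockout in injured cord and 0 for the knockout effect of DRG minus cord. For that effect DESeq2 gave 6, plain library sizes 5, no filter 1, and the fit without libraries A2 and A4 0. No filter gave 3 for the injury response of DRG minus cord. The cause was not tested.

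With the sensory neuron score, injury changes turned to -0.43 (wild type) and -0.46 (knockout) for Dcn, -0.44 and -0.51 for Fn1, and -0.15 and -0.09 for Lum. The knockout change in naive DRG turned to 0.63 (blood), 0.03 (fibroblast) and 0.23 (sensory neuron score) for Fn1, and to 0.35, 0.01 and 0.01 for Timp1. In injured DRG Fn1 turned to 0.03 (blood) and 0.16 (sensory neuron). These were log2 changes, of which those of Fn1, Timp1 and Lum were not called.

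With the replicate block, 5 members were called for the knockout effect of DRG minus cord, Col28a1 in injured DRG (adjusted p = 0.0615) and Col23a1 in injured cord (adjusted p = 0.0642) were lost, and Lum in injured DRG was gained, all by edgeR. The labels do not say that a number marks a shared animal.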
